A study of Mus musculus with 26 samples.

Results

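Lung of mice compound heterozygous for Fgfr3 and Fgfr4 (DHet) was compared with lung of wild type mice (WT) in the arrays titled 1 day. The comparison uses 6 of the 26 arrays of the series, 3 DHet and 3 WT, chosen by genotype and title. RNA of 3 animals was pooled for each array, and replicates are therefore pools. The genotype field calls these mice Double Heterozygous, and the WT are described as C57BL6 mice of matching age. The strain background of the mutants and the deleted part of each receptor gene are not given in the sources used here. Titles and source names give an age of 1 day for these arrays, whereas the characteristics and descriptions give 8 days, so the set is named by its title and no age was assigned. Arrays of the double knockout from the same set (DKO, 3 arrays) and DHet and WT arrays of a set titled 8 day (3 each) and of a 28-day set (3 and 2) serve only as comparisons. The set titled 8 day has the opposite conflict, with an age of 1 day in its characteristics.

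Fibroblast growth factors signal through receptor tyrosine kinases, which FGFR3 and FGFR4 are, to the ERK pathway and to feedback genes of the Sprouty and dual-specificity phosphatase families. In mouse lung, alveoli form after birth, when septa carrying elastic fibres divide the saccules. Mice that lack both Fgfr3 and Fgfr4 are known for a failure of this septation, while loss of either gene alone leaves the lung largely normal. Alveolar type 1 cells form the thin surface for gas exchange, and alveolar type 2 cells make surfactant.

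DHet lung differed from WT lung mostly upwards. Of 27022 probe sets above the level filter, 1373 were called (5.08%, limma adjusted p under 0.05), 1203 higher (4.45%) and 170 lower (0.629%) in DHet. Genes of alveolar type 1 cells and of cholesterol synthesis were among those that rose. Of 16 elastic fibre genes 4 were called higher and 1 lower. Differences were small, since 27 probe sets rose and 6 fell by at least 2-fold. The calls belong to 1058 genes, of which 935 were called higher, 120 lower and 3 in both directions by different probe sets. Taking for each gene the brightest of its probe sets on average, 779 of 13079 genes were called higher (5.96%) and 60 lower (0.459%), and the median difference over all genes was 0.06 log2. Counts of called list members below are to be read beside the shares of 5.96% and 0.459%.

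These calls rest on the spread shared by all 26 arrays. With the spread taken from the 6 compared arrays alone limma called 0 probe sets (4462 at an unadjusted p under 0.05, smallest adjusted p 0.0740), and with the 9 arrays of the set it called 0 (4130 at an unadjusted p under 0.05). The median residual SD was 0.126, 0.136 and 0.134 log2 with 6, 9 and 26 arrays, on 4, 6 and 17 residual degrees of freedom. Every rise or fall below is a call of the shared-spread fit. After quantile normalization within the sets 816 probe sets were called, and 76.5% of the calls were higher instead of 87.6%.

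Single pools carry much of the difference. The count fell to 318 without DHet replicate 1, to 182 without WT replicate 1 and to 284 without WT replicate 2. Of 1149 called probe sets that were higher with no overlap between the arrays, DHet replicate 1 was the array farthest from WT in 71.5%, and WT replicate 3 was the WT array nearest to DHet in 74.4%. The groups did not overlap in 6322 of all 27022 probe sets (23.4%), called or not. The DHet arrays correlated with each other at r of 0.9705 to 0.9854 and the WT arrays at 0.9918 to 0.9941. Across probe sets DHet replicate 1 was nearest to DKO replicate 1 (r = 0.9889), DHet replicate 2 to DKO replicate 3 (0.9924) and DHet replicate 3 to WT replicate 3 (0.9911), so that no DHet array was most like another DHet array.

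Several other signals were read in the same arrays, with values in the order of replicates 1, 2 and 3. The 3' to 5' difference of the actin control probe sets, a sign of RNA degradation, was 0.29, 0.32 and 0.18 log2 in DHet and 0.17, 0.26 and 0.20 in WT (exact permutation test, two-sided p = 0.3). Spiked hybridisation controls averaged 9.86, 9.79 and 9.96 in DHet and 9.60, 8.93 and 9.65 in WT, without overlap (exact permutation p = 0.1, the smallest that 3 against 3 arrays can give). Xist, the RNA of the inactive X chromosome, read 10.91, 9.98 and 6.93 in DHet and 11.16, 11.03 and 10.54 in WT, and the Y-linked Eif2s3y 7.74, 8.47 and 8.80 against 7.10, 6.98 and 7.98. The DHet pools thus differed among themselves in these sex-linked genes, and the sex of the pooled animals is not given in the sources used here. Glucocorticoid responsive genes averaged 10.04 in DHet replicate 1 and between 10.83 and 11.26 in the other DHet and WT arrays, although 0 of 16 were called. No heart, skeletal muscle, lymphocyte or neutrophil marker was called, and of their 13, 7, 11 and 13 measured genes the summed levels of DHet and WT overlapped. Liver genes averaged 8.07 in DHet replicate 2, against 6.67 and 6.90 in the other DHet arrays and 6.86 to 7.02 in WT. Neutrophil and acute inflammation genes averaged 9.47 in WT replicate 1, against 8.75 and 8.71 in the other WT arrays. The DHet arrays read 8.58, 8.88 and 9.02 in these genes. The part of these signals in the calls was not tested.

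The targeted receptor genes were examined first. Fgfr3 read 10.36, 10.34 and 9.94 log2 in DHet and 10.72, 10.57 and 10.81 in WT, so every DHet array lay below every WT array. It was 1.40-fold lower (log2 difference -0.48 ± 0.131 SE, adjusted p = 0.0362). The second Fgfr3 probe set read 7.97, 8.20 and 7.94 in DHet and 8.57, 8.47 and 8.66 in WT and was also lower. Each of the probe sets kept its call without 1 of the 6 arrays and lost it without each of the other 5. In the DKO arrays of the set the first probe set read 9.67, 8.99 and 9.51, below all DHet arrays.

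Fgfr4 was not called in any of its 3 probe sets. The brightest read 9.33, 9.0 and 9.25 in DHet and 8.86, 8.99 and 8.88 in WT, where DHet replicate 2 and WT replicate 2 nearly met, and differed by 0.28 ± 0.114 log2 (adjusted p = 0.151). The others differed by 0.15 and 0.02 log2. The position of these probes relative to the deletions is not given in the sources used here, so neither gene checks the heterozygous labels.

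Of the other receptors and co-receptors, none of 8 measured besides Fgfr3 was called. Fgfr2, the epithelial receptor of branching, differed by 0.20 log2 (adjusted p = 0.142), with 10.86, 10.81 and 10.91 in DHet above 10.75, 10.60 and 10.63 in WT. Fgfr1, a receptor of the mesenchyme, differed by -0.19 (adjusted p = 0.224), and the decoy receptor gene Fgfrl1 by -0.01. The heparan sulfate proteoglycan genes Sdc1, Sdc4 and Gpc3 differed by 0.12, -0.50 and -0.17 log2, and the adaptor gene Frs3 by -0.13. Median differences were -0.13 log2 over the 9 receptor and co-receptor genes and 0.06 over all genes.

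Among the ligands Fgf1, which binds all FGF receptors, rose. Its level was 9.75, 9.26 and 9.55 in DHet against 8.77, 8.76 and 8.97 in WT, with no overlap. This is 1.61-fold (0.69 ± 0.111 SE log2, adjusted p = 0.00191), and the call held without any single array of the 6. Another Fgf1 probe set was also called higher (0.50 log2, adjusted p = 0.0293), and a further one was not called (0.16, adjusted p = 0.562). DKO arrays read 9.61, 9.34 and 9.35. The other ligands measured were not called, namely the mesenchymal ligand Fgf7 (0.05 log2), Fgf9 of epithelium and mesothelium (0.10), Fgf18 (0.32) and Fgf22 (-0.12). Fgf18 reached 7.31 in DHet replicate 1 and lay between 6.38 and 6.61 in the other DHet and the WT arrays.

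Feedback and target genes of FGF and ERK signalling showed no call among 13 measured (median 0.03 log2). The feedback inhibitors Spry1, Spry2 and Spry4 differed by -0.04, 0.15 and 0.03 log2, and Spred1 and Spred2 by -0.14 and 0.15. Dusp6, which dephosphorylates ERK, differed by 0.29 (adjusted p = 0.211), Dusp4 by 0.32 and Dusp5 by -0.26. The ETS factor genes Etv4 and Etv5 differed by -0.12 and 0.25, Il17rd by 0.27, the cyclin gene Ccnd1 by -0.03 and Phlda1 by -0.03. The arrays of DHet and WT overlapped for each of these 13 genes.

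Alveolar type 1 genes rose more than any other cell type group in count. Of the 15 genes, all measured, 9 were called higher and 0 lower, beside 5.96% and 0.459% of all genes, and their median difference was 0.53 log2. Their mean level was 11.70, 11.51 and 11.45 log2 in DHet and 10.94, 10.97 and 11.11 in WT. All DHet arrays lay above all WT arrays, and the DKO arrays, at 11.63, 11.21 and 11.41, lay above WT too. In bulk lung, more cells of a type and more RNA per cell cannot be told apart.

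Akap5, a scaffold gene of protein kinase A, read 10.92, 10.43 and 10.49 in DHet and 9.02, 9.47 and 9.93 in WT. It was 2.20-fold higher (1.14 ± 0.209 SE log2, adjusted p = 0.00488). The WT pools were farther apart in this gene than the DHet pools. Sec14l3, a lipid transfer protein gene, read 12.82, 12.54 and 12.36 against 11.58, 11.60 and 11.87 and was 1.85-fold higher (adjusted p = 0.00177). Clic5, a chloride channel family gene, read 11.72, 11.33 and 11.43 against 10.60, 10.64 and 10.87 and was 1.73-fold higher (adjusted p = 0.00133). In both genes WT replicate 3 was the highest WT array. The homeodomain gene Hopx, a marker of differentiated type 1 cells, read 12.96, 13.04 and 12.98 against 12.27, 12.28 and 12.59, which is 1.53-fold (adjusted p = 0.00196). Unlike the genes before it, Hopx was at nearly one level in the 3 DHet pools.

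The tight junction gene Cldn18 was 1.77-fold higher (adjusted p = 0.00833), the membrane protein gene Emp2 1.39-fold (adjusted p = 0.00786) and the vascular growth factor gene Vegfa 1.44-fold (adjusted p = 0.0118). The IGF binding protein gene Igfbp2 was 1.60-fold higher (adjusted p = 0.0321), with 8.83 in DHet replicate 1 against 7.99 and 7.81 in the other DHet pools. The water channel gene Aqp5 was 1.25-fold higher (adjusted p = 0.0412). Another probe set, not called, differed by 0.30 log2 in Cldn18 (adjusted p = 0.429) and by 0.20 in Vegfa (adjusted p = 0.279). Members not called were the podoplanin gene Pdpn (0.70 log2, adjusted p = 0.0692), the receptor gene Ager (0.28, adjusted p = 0.0582), the sodium channel gene Scnn1g (0.41), the caveolin gene Cav1 (0.23), Rtkn2 (0.37) and Gprc5a (-0.03). Arrays did not overlap in 13 of the 15 genes, against 3368 of 13079 genes in all. Leaving out DHet replicate 1 left 6 calls, leaving out WT replicate 1 or WT replicate 2 left 5 each, and 0 remained with the spread of the 6 or the 9 arrays.

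**Figure D1:**
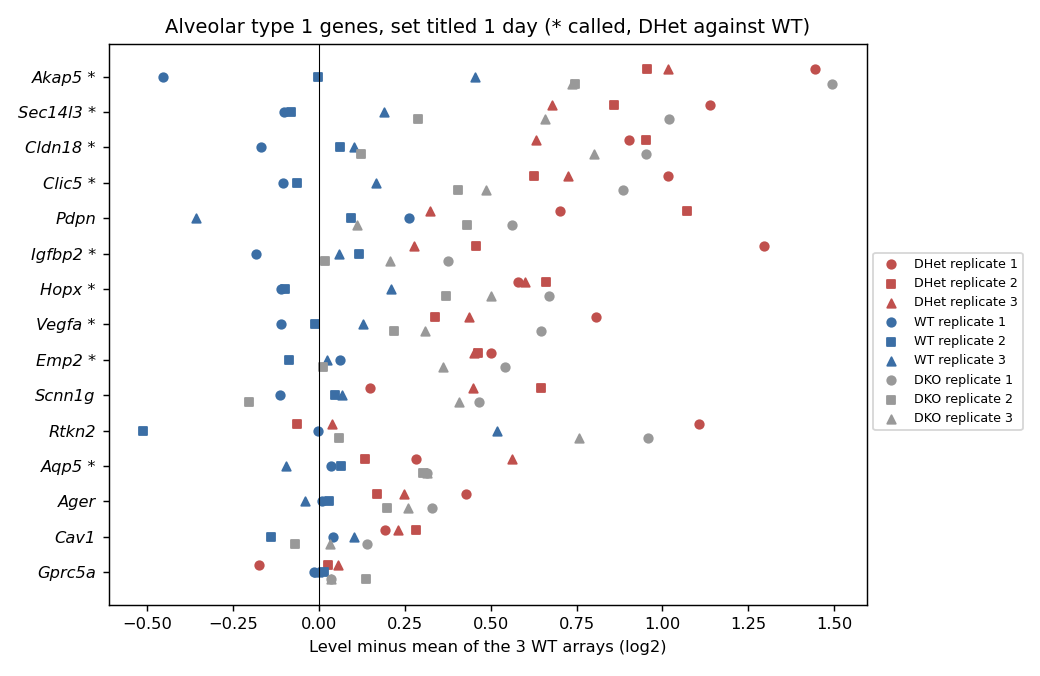
Level of each alveolar type 1 gene in every array of the set titled 1 day, in log2 units relative to the mean of the 3 WT arrays, with 1 point per array (red DHet, blue WT, grey DKO). The DHet points lie to the right of all WT points in 13 of 15 genes, and DHet replicate 1, the red circles, is the rightmost DHet point in Akap5, Sec14l3, Clic5, Igfbp2 and Vegfa.

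Genes of the other epithelial cells rose in smaller numbers. Among alveolar type 2 genes 4 of 17 were called higher and 0 lower (median 0.21 log2), beside 5.96% and 0.459% of all genes. Abca3, the lipid transporter of surfactant lamellar bodies, read 11.94, 11.77 and 11.76 in DHet and 11.38, 11.27 and 11.32 in WT and was 1.41-fold higher (0.50 ± 0.0780 SE log2, adjusted p = 0.0017). Its second probe set was 1.38-fold higher (adjusted p = 0.00185), and both calls held without any single array. The surfactant protein gene Sftpa1 was 1.36-fold higher (adjusted p = 0.00449), the aspartic protease gene Napsa 1.32-fold (adjusted p = 0.0264) and the mucin gene Muc1 1.30-fold (adjusted p = 0.0192). A second Sftpa1 probe set, not called, differed by 0.17 log2 (adjusted p = 0.323). The other surfactant protein genes were not called, with differences of 0.15 in Sftpb, 0.02 in Sftpc and 0.38 in Sftpd (adjusted p = 0.0788). Sftpc lay at 14.51 to 14.59 in all 6 arrays and thus near the highest value in the table, 14.8. Without DHet replicate 1, or without WT replicate 1 or 2, 2 of these genes stayed called.

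Among club cell genes, which mark the secretory cells of the airways, 4 of 11 were called higher and 0 lower (median 0.36 log2). The shares over all genes were 5.96% and 0.459%. Secretoglobin Scgb1a1 read 14.04, 14.00 and 13.93 in DHet and 13.63, 13.54 and 13.75 in WT, 1.28-fold higher (adjusted p = 0.0199). The cytochrome P450 gene Cyp2f2 was 1.51-fold higher (adjusted p = 0.0269), the retinaldehyde dehydrogenase gene Aldh1a1 1.79-fold (adjusted p = 0.0491) and the cholecystokinin receptor gene Cckar 1.90-fold (adjusted p = 0.00996). No club cell gene was called without DHet replicate 1 or without WT replicate 1. In ciliated cells 1 of 15 genes was called, the tubulin binding protein gene Tppp3, and the median of the list was -0.04 log2. Tppp3 read 11.39, 11.06 and 11.25 in DHet and 9.75, 9.78 and 10.40 in WT, 2.39-fold higher (1.26 ± 0.183 SE log2, adjusted p = 0.00105). It stood apart from the other ciliated cell genes, and its call held without any single array.

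Cholesterol synthesis was the metabolic pathway with the most calls among the lists. Of 20 lipid and cholesterol genes 17 were measured, and 7 were called higher and 0 lower, beside 5.96% and 0.459% of all genes. The median of the list was 0.34 log2. The pathway condenses acetyl units to isoprenoids and squalene, and SREBP-2, the product of Srebf2, activates its genes when cell sterol is low. The upstream sequences of Hmgcs1 and Idi1 are shown because both genes rose and their promoters can be searched for elements known from sterol genes; they were chosen after the values were seen. They hold the 250 bases before the annotated start, from RefSeq (build GRCm38.p6), on the plus strand at chr13:119690101-119690350 for Hmgcs1 and chr13:8885356-8885605 for Idi1. Capitals mark matches, on either strand, to TCACNCCAC, a core of the sterol regulatory element, and to CCAAT, the box bound by NF-Y.
Hmgcs1: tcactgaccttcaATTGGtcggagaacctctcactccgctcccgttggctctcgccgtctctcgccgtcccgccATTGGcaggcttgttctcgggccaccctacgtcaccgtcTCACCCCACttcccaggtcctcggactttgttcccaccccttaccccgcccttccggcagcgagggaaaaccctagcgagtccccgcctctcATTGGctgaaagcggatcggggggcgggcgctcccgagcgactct
Idi1: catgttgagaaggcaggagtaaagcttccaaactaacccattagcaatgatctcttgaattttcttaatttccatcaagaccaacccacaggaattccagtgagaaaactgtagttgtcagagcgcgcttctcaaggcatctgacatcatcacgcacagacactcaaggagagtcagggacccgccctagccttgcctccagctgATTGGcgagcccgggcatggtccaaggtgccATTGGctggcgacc
Hmgcs1 holds 1 match to the first motif and 3 to the second, and Idi1 holds 0 and 2. Of 32851 promoters in that RefSeq table, a share of 1.05% holds the first motif and 33.85% the second. Counted by gene, with a match in any of its promoters, the shares are 1.22% and 37.49% of 27025 genes. For the 17 measured genes 12 have a promoter there, of which 1 holds the first motif and 9 the second. The shortened cores CACNCCAC and TCACNCCA, also searched, are in 5.29% and 3.67% of promoters and each in 2 of the 12 genes. CATTCC, searched in the promoters of 13 alveolar type 1 genes, is in 12.64% of all promoters and in 0 of these genes. For the shortened cores and CATTCC the shares are by promoter, whereas the counts are by gene with a match in any promoter. These measures are not alike, and shares by gene were not computed for them. A match is a description of the letters and shows no binding.

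The enzyme genes Hmgcs1, Idi1, Fdps and Fdft1, which act on the way to squalene, were all highest in DHet replicate 1. Hmgcs1, HMG-CoA synthase, read 11.07, 10.37 and 10.46 in DHet and 9.83, 9.80 and 9.99 in WT, 1.70-fold higher (0.76 ± 0.175 SE log2, adjusted p = 0.016). Idi1, the isopentenyl diphosphate isomerase, read 9.68, 8.82 and 8.65 against 7.83, 7.89 and 8.09, 2.17-fold higher (adjusted p = 0.0104). DHet and WT arrays did not overlap in either gene. Fdps, which makes farnesyl diphosphate, read 9.65, 9.26 and 9.0 against 8.50, 8.47 and 8.68, 1.69-fold higher (adjusted p = 0.00495). Fdft1, squalene synthase, read 9.46, 8.84 and 8.45 against 7.85, 7.92 and 8.06, 1.96-fold higher (adjusted p = 0.00236). Of its 3 other probe sets 1 was also called higher (0.87 log2, adjusted p = 0.000594), and the others, not called, both differed by -0.05. Fdps and this Fdft1 probe set were the only ones of the list that kept their call without each single array of the 6.

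The squalene epoxidase gene Sqle was 1.81-fold higher (adjusted p = 0.0334), the ATP citrate lyase gene Acly 1.26-fold (adjusted p = 0.0234) and Srebf2 itself 1.21-fold (adjusted p = 0.0356). Later steps of sterol synthesis were not called, with 0.71 log2 in Cyp51 (adjusted p = 0.0718), 0.39 in Dhcr7 and 0.03 in Lss, nor was the sterol sensor gene Insig1 (0.52, adjusted p = 0.0609). The fatty acid branch showed no call in the other members, with -0.01 log2 in Fasn, 0.06 in Acaca, 0.06 in Scd2, 0.09 in Elovl6 and -0.20 in Srebf1. Scd1, the desaturase of this branch, was lower. Its brighter probe set differed by -0.81 log2 (adjusted p = 0.0506), and its second one was at 9.05 ± 0.371 in DHet and 10.20 ± 0.182 in WT (SD, n = 3 each), 2.22-fold lower (adjusted p = 0.0362).

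Without DHet replicate 1, WT replicate 1 or WT replicate 2, 2 of the 7 calls were left in each case, and quantile normalization left 4 with 1 lower. The DKO arrays read 10.87, 9.93 and 10.39 in Hmgcs1 and 9.33, 8.04 and 8.67 in Idi1, so that the first DKO pool was also the highest of its group. DHet replicate 1 and DKO replicate 1 were at the same time the lowest arrays of the set in the mean of glucocorticoid responsive genes (10.04 and 10.24), and the part of this in the sterol genes was not tested.

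**Figure D2:**
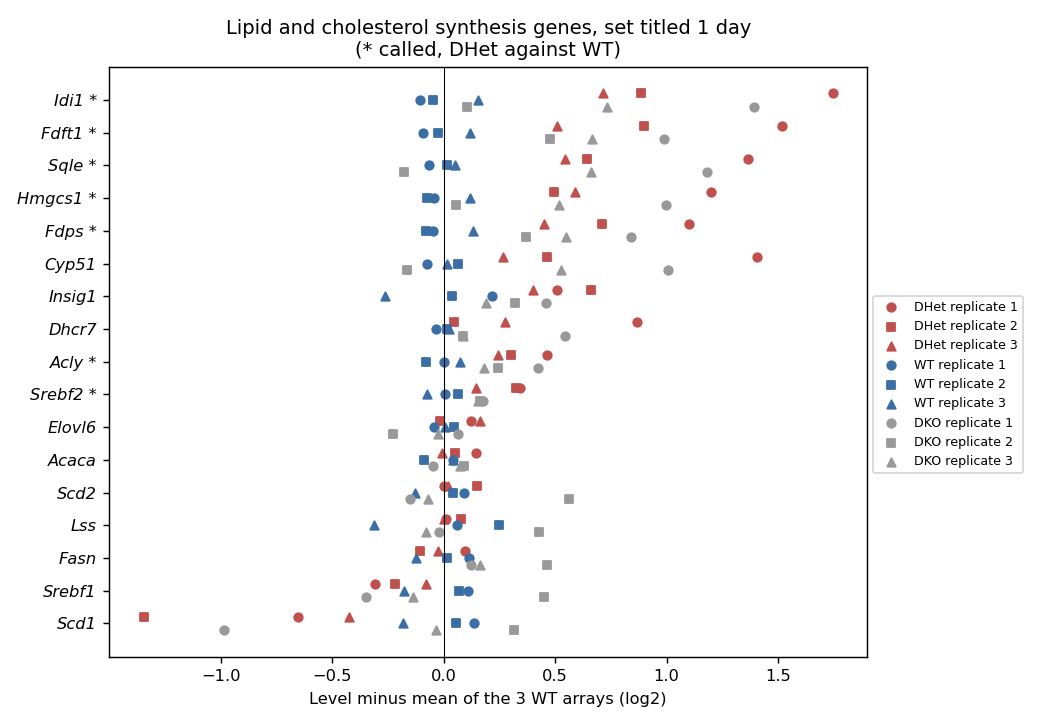
Level of each lipid and cholesterol synthesis gene in every array of the set titled 1 day, in log2 units relative to the mean of the 3 WT arrays, with 1 point per array (red DHet, blue WT, grey DKO). The DHet points of the 7 called genes lie to the right of all WT points, DHet replicate 1 is farthest right in each of Idi1, Fdft1, Sqle, Hmgcs1 and Fdps, and Scd1 is the only gene of the list with all DHet points well to the left.

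Endothelial genes gave 3 calls among 20, all higher, beside 5.96% of all genes called higher, with a median of 0.18 log2. Car4, a carbonic anhydrase of capillaries, read 10.27, 9.76 and 9.49 in DHet and 8.92, 8.89 and 9.04 in WT, 1.85-fold higher (adjusted p = 0.0017). Vwf, the von Willebrand factor gene of larger vessels, was 1.51-fold higher (adjusted p = 0.0017) and the angiopoietin receptor gene Tek 1.71-fold (adjusted p = 0.0105). The other 17 genes were not called, among them Pecam1 (0.14 log2), Cdh5 (-0.06) and Kdr (-0.06). Of the 20 differences 15 were positive, beside 8263 of 13079 over all genes. The lymphatic growth factor gene Vegfd fell 1.43-fold in 1 probe set (adjusted p = 0.0476). Its 2 other probe sets, not called, differed by -0.09 and -0.06 log2.

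Genes of the septal mesenchyme moved in both directions. In the elastic fibre list 4 of 16 genes rose and 1 fell (median 0.18 log2), beside 5.96% and 0.459% of all genes. Loxl1, a lysyl oxidase that crosslinks elastin, read 11.26, 10.80 and 11.01 in DHet and 10.13, 10.26 and 10.35 in WT, 1.71-fold higher (adjusted p = 0.00757). The microfibril gene Mfap5 was 1.62-fold higher (adjusted p = 0.0354), and the fibulin genes Fbln5 (1.34-fold, adjusted p = 0.0195) and Fbln2 (1.53-fold, adjusted p = 0.0461) rose as well. Elastin itself was not called, with Eln at 13.48, 13.56 and 13.35 in DHet and 13.45, 13.24 and 13.53 in WT (0.06 log2, adjusted p = 0.835). Mfap4, a microfibril-associated gene, fell 1.38-fold (adjusted p = 0.0212). No elastic fibre gene was called without DHet replicate 1 or without WT replicate 1. After quantile normalization 1 gene of this list was called higher and 1 lower.

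Among collagens and other matrix genes 2 of 20 rose and 3 fell, beside 5.96% and 0.459% of all genes. Tnc, the tenascin C gene of remodelling matrix, read 10.92, 9.82 and 10.21 in DHet and 9.02, 9.02 and 9.37 in WT, 2.27-fold higher (adjusted p = 0.0309), and Col5a1 was 1.40-fold higher (adjusted p = 0.0132). Col14a1, a collagen of the fibril surface, read 9.44, 9.54 and 9.56 against 10.09, 10.10 and 10.13, 1.51-fold lower (adjusted p = 0.00449). Both groups were tight in Col14a1, and its call held without any single array. The proteoglycan gene Lum fell 1.42-fold (adjusted p = 0.022) and Col15a1 1.27-fold (adjusted p = 0.0441). Under quantile normalization the 3 falls stayed called in number and no member was called higher.

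Timp2, an inhibitor of matrix metalloproteinases, had one of the smallest adjusted p-values among the named genes. It read 11.28, 11.23 and 11.15 in DHet and 10.58, 10.68 and 10.56 in WT. This is 1.53-fold higher (0.61 ± 0.0795 SE log2, adjusted p = 0.000396), and the call held without any single array. Of the 4 other Timp2 probe sets 1 was also called higher (0.39 log2, adjusted p = 0.0137). The rest, not called, differed by 0.18 to 0.27 log2. The metalloproteinase gene Mmp11 was 1.90-fold higher (adjusted p = 0.0284), with 9.22 in DHet replicate 1 against 8.03 and 8.28 in the others. Tcf21, a transcription factor of lung fibroblasts, was 1.44-fold higher (adjusted p = 0.048). Its DKO arrays read 12.23, 11.48 and 12.15, against 12.82, 12.61 and 12.63 in DHet and 12.11, 12.05 and 12.32 in WT, so that DHet stood above both other genotypes (DKO against DHet adjusted p = 0.113).

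Growth, immune and further groups gave between 0 and 3 calls each, beside 5.96% of all genes called higher and 0.459% lower. In the IGF system 3 of 14 genes rose, Igfbp2, Igfbp7 and Irs1, while Igf1 differed by 0.20, 0.02, -0.21 and -0.28 log2 in its 4 probe sets, none of them called. In the cell cycle list 1 of 22 was called, the centromere gene Cenpa, 1.57-fold lower (adjusted p = 0.0393), and the list's median was -0.25 log2. The mean of its genes was 7.80 in DHet replicate 1 and 7.24 and 7.33 in the other DHet pools, on both sides of the WT range of 7.63 to 7.77. Macrophage genes gave 2 calls of 16, the mannose receptor gene Mrc1 (1.41-fold higher, adjusted p = 0.0146) and the growth factor receptor gene Csf1r (1.45-fold, adjusted p = 0.0111). Of 10 pericyte genes Kcnj8 and Gucy1b1 rose, and of 10 mesothelium genes Msln, Krt7 and Cldn15. Wnt, hedgehog and Notch signalling, interferon response, circadian clock and immediate early genes gave 0 calls of 16, 11, 13, 16, 14 and 15.

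**Figure D3:**
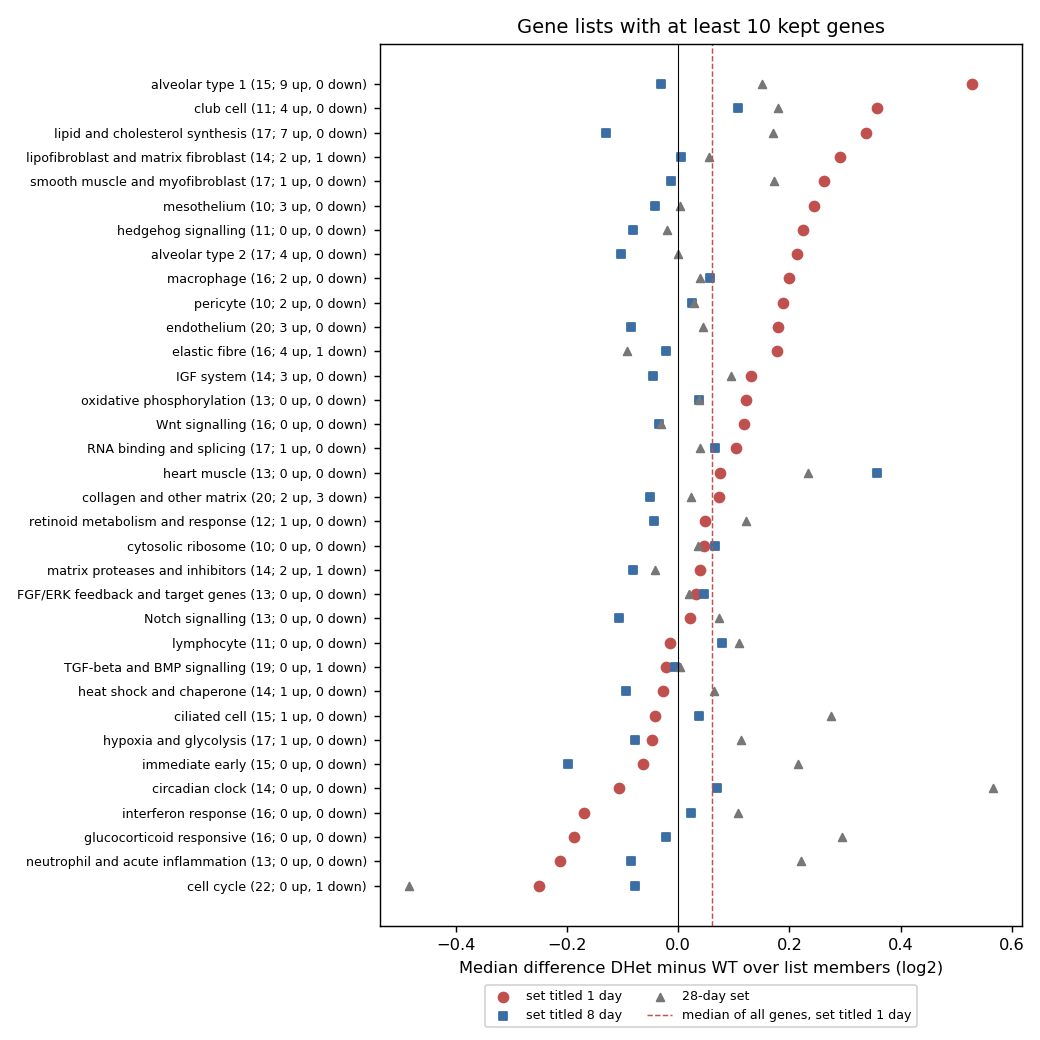
Median log2 difference, DHet minus WT, of each gene list with at least 10 measured genes in the set titled 1 day and in the sets titled 8 day and 28 day. Alveolar type 1 genes have the highest median in the set titled 1 day, 0.53, and the 3 sets share no arrays.

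The largest single rise was in a probe set of the nuclear long noncoding RNA Neat1. It read 12.55, 10.82 and 11.45 in DHet and 9.98, 9.98 and 10.49 in WT, 2.75-fold higher (1.46 ± 0.364 SE log2, adjusted p = 0.0245), and lost its call without 3 of the 6 arrays. The other Neat1 probe set differed by -0.13 log2 (adjusted p = 0.461), so no direction can be given for the gene. The thrombospondin gene Thbs3 read 10.12, 8.69 and 8.77 against 7.61, 7.58 and 8.11, 2.68-fold higher (adjusted p = 0.00721). Misp3 read 8.20, 7.26 and 7.53 against 6.24, 6.18 and 6.51, 2.55-fold higher (adjusted p = 0.00131). In these probe sets of all 3 genes DHet replicate 1 was the highest and WT replicate 3 the highest of the WT arrays.

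Pcolce2, which encodes an enhancer of procollagen processing, had the smallest adjusted p of the comparison. It read 9.46, 8.84 and 9.41 in DHet and 7.70, 8.18 and 8.16 in WT, 2.34-fold higher (1.23 ± 0.142 SE log2, adjusted p = 0.000224). Without any one array it stayed called (highest adjusted p = 0.00354), and DKO arrays, at 8.88, 8.56 and 8.53, lay above WT and overlapped DHet. The semaphorin gene Sema4f was 2.27-fold higher (adjusted p = 0.00458) and Mustn1, a gene of the musculoskeletal system, 2.26-fold (8.75, 8.61 and 8.53 against 7.30, 7.32 and 7.73, adjusted p = 0.00131). Prr5l, a gene of mTOR complex 2 signalling, rose 2.22-fold (adjusted p = 0.0254). Gask1b read 10.08, 9.64 and 9.64 in DHet, 8.54, 8.54 and 8.96 in WT and 9.37, 8.33 and 8.73 in DKO. It was 2.15-fold higher in DHet than in WT (adjusted p = 0.00185), while DKO differed from WT by 0.13 log2 (adjusted p = 0.805) and from DHet by -0.98 (adjusted p = 0.0522).

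The largest falls were led by the protease inhibitor gene A2m. It read 6.63, 6.54 and 6.86 in DHet and 7.82, 8.03 and 7.73 in WT, 2.27-fold lower (-1.18 ± 0.145 SE log2, adjusted p = 0.00024), and stayed called without any single array. Its DKO arrays read 6.24, 7.01 and 6.83, also below all WT arrays. Klf9, a transcription factor gene induced by glucocorticoids, read 6.85, 7.63 and 7.60 against 8.84, 8.21 and 8.05, 2.01-fold lower (adjusted p = 0.046). Its 5 other probe sets were not called and differed by -0.74 to -0.39 log2. The brightest of them, which stands for Klf9 in the glucocorticoid responsive list, differed by -0.44 (adjusted p = 0.286). The imprinted gene Nnat was 1.87-fold lower (9.05, 8.47 and 8.95 against 9.81, 9.81 and 9.55, adjusted p = 0.00891). The BMP family gene Gdf10 was 1.78-fold lower (adjusted p = 0.0112) and the kinase gene Sik1 1.62-fold (adjusted p = 0.0163).

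Lrrc23 had the tightest groups among these falls. It read 8.46, 8.40 and 8.61 in DHet and 9.16, 9.15 and 9.16 in WT, 1.59-fold lower (adjusted p = 0.00302). DKO arrays read 8.86, 9.48 and 9.07, and DKO was higher than DHet by 0.65 log2 (adjusted p = 0.0479), 1 of 7 probe sets (0.0259%) called between DKO and DHet in the set. Rtn4rl2 fell 1.61-fold, and 1 probe set each of Greb1 (1.72-fold) and the ETS factor gene Elf2 (1.68-fold) fell as well. The other probe sets, not called, differed by -0.22 log2 in Greb1 and by -0.10 and -0.11 in Elf2. Cap1, of actin turnover, fell 1.96-fold (adjusted p = 0.028), with WT arrays spread from 6.96 to 8.28. The small GTPase gene Cdc42 fell 1.76-fold in 1 probe set (adjusted p = 0.0144), while its 3 other probe sets had the opposite sign, so no direction can be given for the gene. Such disagreement was common, since of 644 called genes with several measured probe sets 577 had 1 or more not called and 220 had 1 or more of opposite sign. Of the genes named as higher, Napsa (-0.005 log2), Tcf21 (-0.01), Igfbp7 (-0.03), Fdft1 (-0.05) and Htra3 (-0.23) each have at least 1 such probe set, none of them called. Further genes named as higher have probe sets of the same sign that were not called, for example Tnc (0.80 log2), Sema4f (0.37) and Ptprg (0.15 and 0.11).

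Genes near the mutated receptors were counted, because alleles linked to a targeted locus can differ from the WT strain. Within 20 Mb of Fgfr3 18 of 202 measured genes were called higher and 1 lower (9.41% in all), and within 20 Mb of Fgfr4 10 of 217 were higher and 3 lower (5.99%), beside 5.96% and 0.459% of all genes. Near Fgfr3 the semaphorin gene Sema3c was 1.71-fold higher (8.25, 8.39 and 8.27 against 7.41, 7.46 and 7.74, adjusted p = 0.00225). The extracellular superoxide dismutase gene Sod3 was 1.84-fold higher (8.38, 8.05 and 8.25 against 7.33, 7.34 and 7.38, adjusted p = 0.00366), and Add1, Htra3 and Sema3e rose as well, by 0.44, 0.66 and 0.67 log2. Near Fgfr4 the mitochondrial carrier gene Sfxn1 was 1.94-fold higher (7.70, 8.30 and 8.38 against 6.95, 7.21 and 7.36, adjusted p = 0.0112), while its second probe set differed by 0.09 log2 (adjusted p = 0.55). The inhibitor of DNA binding Id4 fell 1.53-fold (8.02, 8.10 and 8.24 against 8.74, 8.71 and 8.73, adjusted p = 0.00693). One probe set of the kinase gene Riok1 was 1.54-fold lower (adjusted p = 0.0089), but its 4 others, none called, differed by -0.16 to 0.06 log2, so no direction can be given for the gene. Linkage as a source of these differences was not tested.

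The same comparison in the other sets, which share no arrays with this one, called 14 probe sets (0.0518%) in the set titled 8 day and 6 (0.0222%) in the 28-day set. For the 1203 probe sets called higher the median difference was 0.44 log2 in the set titled 1 day, where they were chosen. It was -0.02 in the set titled 8 day and 0.04 in the 28-day set. For the 170 called lower the medians were -0.43, 0.00 and -0.02 in the same order. The first Fgfr3 probe set, lower here, differed by -0.40 log2 in the set titled 8 day and by -0.49 in the 28-day set. The second differed by -0.24 and -0.07, and none of these Fgfr3 differences was called. A test of the difference between sets called 197 probe sets against the set titled 8 day (0.729%, of which 176 or 0.651% had the higher difference in the set titled 1 day and 21 or 0.0777% the lower). After quantile normalization 68 were called, 47 higher and 21 lower. Against the 28-day set it called 0, with 3348 at an unadjusted p under 0.05 and an SE enlarged by the 2 WT arrays there. Alveolar type 1 genes Clic5 and Hopx differed from WT by -0.01 and -0.05 log2 in the set titled 8 day and by 0.19 and 0.10 in the 28-day set.

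**Figure D4:**
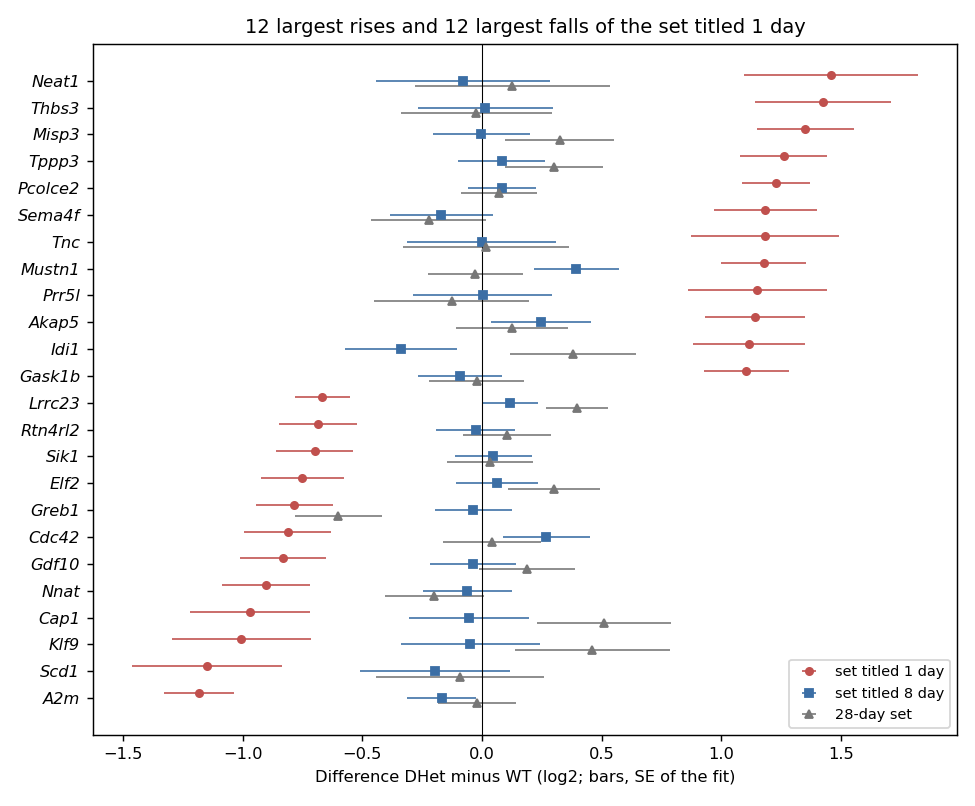
DHet minus WT difference (log2, with the standard error of the fit) of the named genes with the largest rises and falls, in the set titled 1 day and in the sets titled 8 day and 28 day. The genes were chosen for their size in the set titled 1 day, where the called Neat1 probe set is at 1.46 and A2m at -1.18, and in the set titled 8 day these lie at -0.08 and -0.17.

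Nnt, Cdk5rap1 and Cd59a changed in the opposite direction in the set titled 8 day. Nnt, the mitochondrial transhydrogenase gene that carries a deletion in the C57BL/6J substrain, read 9.10, 8.42 and 8.80 in DHet and 8.14, 8.10 and 8.16 in WT here, 1.56-fold higher (adjusted p = 0.018). Among the arrays titled 8 day, DHet was lower by -1.25 log2 (adjusted p = 0.000283), and the 28-day arrays differed by 0.20. Cdk5rap1, which modifies mitochondrial transfer RNA, behaved alike, with 0.73 log2 here (adjusted p = 0.00833) against -0.82 between arrays titled 8 day (adjusted p = 0.0278). The complement regulator gene Cd59a differed by 0.34 (adjusted p = 0.0497) and -0.99 (adjusted p = 1.72e-05). The protease gene Ctse was not called here (-0.12, adjusted p = 0.665) and was lower by -1.89 among the arrays titled 8 day (adjusted p = 3.42e-07), with the same sign in both. Whether the strain background of the pools differed between sets was not tested.

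**Figure D5:**
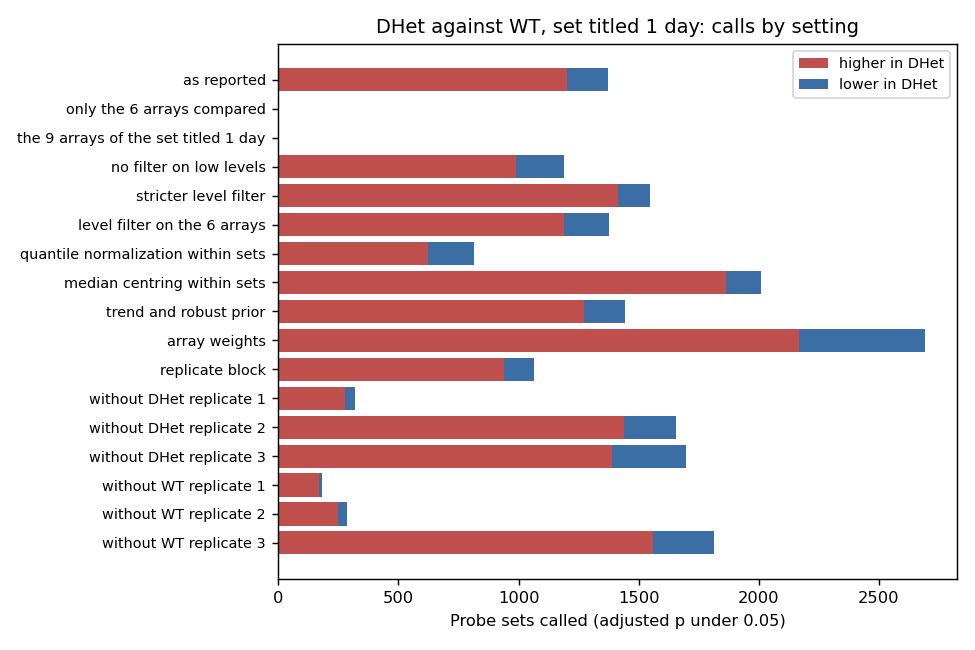
Number of probe sets called between DHet and WT in the set titled 1 day, higher and lower, under each way of fitting and scaling the arrays. The main count is 1373, the fits with the spread of 6 or 9 arrays give 0, and leaving out single arrays gives 182 to 1813.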

How the data were processed

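The authors deposited log2 levels of probe sets for 26 Affymetrix arrays of lung RNA, in a table of 45101 probe sets. How they were summarised and normalized is not stated in the sources used here. Values are distributed nearly alike within a set and differently between sets, so levels were compared only within a set. The 64 control probe sets were left out, and the 27022 others whose mean across arrays was in the top 60% (at least 5.38 log2) were kept. They cover 13079 genes, named through the platform annotation, with symbols updated by Entrez identifier for 34741 of the 34945 probe sets that name 1 gene.

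One linear model with a mean for each group and no covariate was fitted to the 26 arrays (limma 3.58.1, R 4.3.3, moderated by eBayes). Benjamini-Hochberg adjustment ran over the 27022 probe sets, with calls at an adjusted p under 0.05. Differences carry the standard error (SE) of the fit. Titles call the arrays biological replicates, and nothing further says how the pools were made. The p-values therefore measure the spread between pools within groups, shared over all 26 arrays, and the number of pools limits the precision. The DHet arrays titled 1 day had the largest median SD of the 9 groups, 0.136 log2, against 0.092 in the WT arrays compared with them.

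A gene in a list is represented by its kept probe set with the highest mean, and 552 of 687 genes in 47 lists had one. Lists are described by counts and medians without a set test. The comparison, its lists and its named genes were chosen with earlier results of these data known. Named are the receptor genes, Eln and Igf1, the 12 largest rises and 12 largest falls (called, no overlap of arrays, smallest p per gene), up to 4 called members per list, every FGF gene, up to 6 called genes within 20 Mb of each receptor, and the 6 genes with the smallest p between sets. A few further genes were named after their values were seen, to complete a list. The script was tested on simulated data. Alternatives were the spread of fewer arrays, other level filters, quantile normalization, median centring, another prior, array weights, a replicate block and leaving out each array. Counts of lists under these settings were added after seeing the data.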

Additional observations from a re-analysis of the deposited data

Results flagged for a closer look

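The results below differed between sets by a direct test, in which the DHet minus WT difference of the set titled 1 day minus that of the set titled 8 day was compared with 0 in the same limma fit. The test called 197 probe sets. Among the genes named for their rises it gave 1.35 log2 for Misp3, 1.18 for Tppp3, 1.14 for Pcolce2, 1.35 for Sema4f, 1.45 for Idi1 and 1.20 for Gask1b. Among the falls it gave -1.01 for A2m and -0.78 for Lrrc23. Epithelial genes gave 0.80 for Clic5, 0.92 for Sec14l3, 0.66 for Hopx, 0.72 and 0.70 for the 2 probe sets of Abca3 and 0.55 for Sftpa1. Fgf1 was at 0.79, the capillary gene Car4 at 0.89, Tcf21 at 0.93, Lum at -0.85 and Timp2 at 0.61. The sterol genes Fdft1 and Fdps were at 1.02 and 0.98.

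Genes within 20 Mb of a receptor also differed between the sets, by 1.05 log2 in Sema3c, 0.50 in Add1, 0.93 in Sod3, 0.89 in Sema3e and 0.55 in Kif13a. The genes with the smallest p in this test were Cd59a (1.33), Nnt (1.89), Ctse (1.76), Cdk5rap1 (1.55) and Mxra8 (0.68). In Cd59a, Nnt, Ctse and Cdk5rap1 the set titled 8 day had the larger difference (-0.99, -1.25, -1.89 and -0.82 log2, against 0.34, 0.64, -0.12 and 0.73), and in Mxra8 the set titled 1 day had (0.53 against -0.16). The phosphatase gene Ptprg was at 0.70 and Lgi3 at 0.61, both chosen by their p against the 28-day set. Since age labels of the sets conflict and values are distributed differently between sets, age and set cannot be told apart.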

How the results depend on the processing

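The main count of 1373 probe sets called between DHet and WT in the set titled 1 day was 0 with the 6 compared arrays and 0 with the 9 arrays of the set. It was 816 after quantile normalization, 2010 after median centring, which shifts the median of all probe sets to 0.06 log2, and 2692 with array weights, and it ranged from 182 to 1813 when single arrays were left out. The other level filters, the other prior and the replicate block left it between 1066 and 1548. The 197 calls between this set and the set titled 8 day became 81 without a level filter, 355 with a stricter one, 68 after quantile normalization, 399 after median centring, 728 with array weights and 32 with the replicate block, and 10 to 502 without single arrays. Against the 28-day set the count of 0 became 3, 4, 105 and 1 under quantile normalization, median centring, array weights and the replicate block, and 0 to 15 without single arrays. Deviations of equally numbered DHet and WT pools correlated at -0.21, 0.32 and -0.16, and those of unequal numbers at -0.31 to 0.38. These values do not show whether equal replicate numbers pair the pools. With the replicate number as a block the count was 1066. No named probe set that was called changed direction under any setting run, but 12 that were not called, with differences between -0.12 and 0.20 log2, did. Quantile normalization gave -0.0224 log2 in the Fgfr4 probe set nearest 0, -0.006 and -0.0107 in those of Eln, -0.0664 in the second of Igf1 and -0.0326 in Spry4. Median centring gave 0.0168 in Fgfrl1 and 0.0033 in Ccnd1. Array weights gave -0.0138 in that Fgfr4 probe set, -0.1866 in that of Igf1, -0.0048 in Fgf7, 0.0148 in Ccnd1 and 0.0929 in Phlda1. When single arrays were left out the ranges were -0.0156 to 0.045 in Fgfr4, -0.0806 to 0.1802 and -0.0266 to 0.1188 in Eln, -0.0145 to 0.3492 and -0.2621 to 0.198 in Igf1, -0.0788 to 0.031 in Fgfrl1, -0.0453 to 0.1084 in Fgf7, -0.0919 to 0.0237 in Spry1, -0.0405 to 0.1033 in Spry4, -0.2475 to 0.2505 in Ccnd1, -0.1973 to 0.2099 in Phlda1 and -0.2681 to 0.0476 in Ctse. Of 88 named probe sets called, 70 stayed called after quantile normalization, 36 when DHet replicate 1 was left out, 33 and 46 when WT replicate 1 or 2 was, and 0 with 6 or 9 arrays. The cause of these shifts was not tested beyond the fewer arrays in the fits that leave some out. Intensities near the lower end of the scale limit what can be measured, and 18015 probe sets passed the stricter filter.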

Other observations

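Some gene groups outside the comparisons above held single calls. The small heat shock protein gene Cryab read 11.06, 10.89 and 10.90 in DHet and 10.52, 10.24 and 10.64 in WT, 1.40-fold higher (adjusted p = 0.0324), as the single called member of 14 chaperone genes. The guanine nucleotide exchange factor gene Vav3 read 7.47, 7.27 and 6.99 against 6.33, 6.48 and 6.79, 1.63-fold higher (adjusted p = 0.00428). Ptprg, a receptor phosphatase gene, was 1.60-fold higher (adjusted p = 0.000472) and Lgi3, a secreted protein gene, 1.39-fold (adjusted p = 0.00177), and each held its call without any single array. The matrix remodelling gene Mxra8 was 1.44-fold higher in DHet than in WT (11.73, 11.67 and 11.59 against 11.05, 11.08 and 11.29, adjusted p = 0.000397), with DKO arrays at 11.29, 11.27 and 11.26 and DKO below DHet by -0.39 log2 (adjusted p = 0.0446).

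In smooth muscle and myofibroblast genes 16 of 17 differences were positive, beside 8263 of 13079 over all genes. The median of the list was 0.26 log2, and 1 gene was called, Mustn1. Median differences by level of the gene, in 4 equal groups of 13079 genes from low to high, were -0.01, 0.05, 0.09 and 0.10 log2, and 0.02, 0.02, 0.02 and 0.00 after quantile normalization.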
